A study of Mus musculus with 19 samples.

Results

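The lower edge of the captured Shh region is a stretch of 58 bins of 10 kb on mouse chromosome 5, chr5:27800001-28380000 in build mm9. Its members are all bin pairs of this stretch that lie 20 kb or more apart, which gives 1596 pairs of the 38781 such pairs among the 280 bins of the region. They were chosen by position alone, and places below are given as the start of a bin in kb from the lower edge. Contacts came from capture Hi-C, in which DNA ends that lie close together in fixed nuclei are ligated, enriched for 1 region with probes and sequenced as pairs. Contact is expressed as observed over expected, the balanced signal of a bin pair over the mean signal of that map at the same distance between bins, so that 1 means the usual contact at that distance.

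The 19 samples form 9 groups, each deposited as 1 merged map. Wild type limb bud (3 samples) and wild type midbrain (2 samples) came from C57BL/6 embryos. All other groups have 2 samples each and the strain label G4, a mouse embryonic stem (ES) cell line. They are wild type ES cells, limb buds with deltaCTCF i4i5, deltaCTCF i4i5ZRS, deltaZRSreg, deltaCTCF i4i5ZRSreg or Lmbr1deltaprom/deltaprom, and midbrain with deltaCTCF i4i5ZRS. The first of these alleles removes the CTCF sites i4 and i5, the second also a CTCF site named for the ZRS, the limb enhancer of Shh, the third the ZRSreg element, the fourth i4, i5 and ZRSreg together, and the fifth the Lmbr1 promoter. Embryos were at day E10.5, and 1 of the 2 ES cell samples carries this stage label as well. The series design calls the replicates biological for wild type and technical for mutant tissue. The same library number appears in the titles of 2 of the 3 wild type limb samples. The tissues were dissected whole and hold several cell types.

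Replicate libraries are pooled in these maps, so replicate error cannot be given and no test was made. The 5 limb mutant comparisons share the wild type limb map. In them and in midbrain i4i5ZRS over wild type midbrain, the allele and the strain cannot be told apart, and in ES cells over wild type tissue the same holds for cell type and strain. The 95% intervals below cover counting error only, from the contact counts recovered from the balanced signal.

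Shh encodes Sonic hedgehog, a secreted signal that patterns the limb and the nervous system. Chromosomes are folded into domains whose parts touch each other more often than they touch sequence beyond the domain. Cohesin is thought to extrude loops of chromatin until it meets CTCF bound to DNA, and bound CTCF is common at domain borders. Other contact patterns follow active and inactive chromatin and can differ between cell types. In the mouse gene order (RefSeq, GRCm38.p6), Insig1, an endoplasmic reticulum protein that restrains cholesterol synthesis, is followed away from Shh by Htr5a, a serotonin receptor, then by Paxip1, a protein of the DNA damage response, by Speer4b, and by Dpp6, a subunit that modifies potassium channels. Towards Shh the order is En2, Cnpy1, Rbm33 and then Shh itself. No gene is placed at a bin here because no mm9 annotation was used, so the position of the stretch below Insig1 was not checked. The upper end of the stretch lies 400 kb below the first bin of the Shh promoter viewpoint, and the deleted elements lie beyond the promoter.

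Depth in the stretch ranged from 72801 contacts in limb i4i5 to 217608 in ES cells, and the median contact count of a pair from 27 to 74 in the same maps. Between 0 and 8 of the 1596 pairs had no contact in a map. The lowest total of any bin of the stretch was at 30 kb (chr5:27830001-27840000) in all 9 maps, from 1126 contacts in limb i4i5 to 4332 in ES cells. The bins from 430 to 510 kb were also thinly covered and held 5.85% to 8.06% of the contact ends of the stretch. A value joining these bins rests on fewer contacts.

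Taken as a whole, the stretch was in contact with itself about as often as the average pair of the map at the same separations. Mean observed over expected was 0.980 in wild type limb (counting interval 0.973 to 0.988), 0.957 in wild type midbrain (0.948 to 0.966) and 0.977 in ES cells (0.971 to 0.984). The mutant limb maps gave 1.037 for i4i5 (1.025 to 1.049), 0.980 for i4i5ZRS, 0.983 for ZRSreg, 0.992 for i4i5ZRSreg and 0.972 for the Lmbr1 promoter, and midbrain i4i5ZRS gave 0.953 (0.945 to 0.961). Limb i4i5 was the highest map and the shallowest, and both midbrain maps lay below all 6 limb maps. The SD over single pairs within a map was 0.278 to 0.372. The same number of bins at the upper edge of the region had means of 1.17 to 1.26, and 58 bins within the Shh domain 1.15 to 1.32, so the lower edge was the weakest of these 3 stretches in every map. Without balancing its mean was 0.709 to 0.788, against 0.832 to 0.950 at the upper edge.

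Near contacts were above the usual level and far ones below it. At separations of 20 to 40 kb the mean was 1.12 to 1.17 over the 9 maps, at 100 to 190 kb 0.992 to 1.08, and at 400 to 570 kb 0.768 to 0.915. The excess at short range sat in the first 10 bins, where pairs 20 to 40 kb apart had means of 1.43 to 1.52, while the rest of the stretch had 1.05 to 1.09. Those first bins lie at the very end of the captured region.

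**Figure D1:**
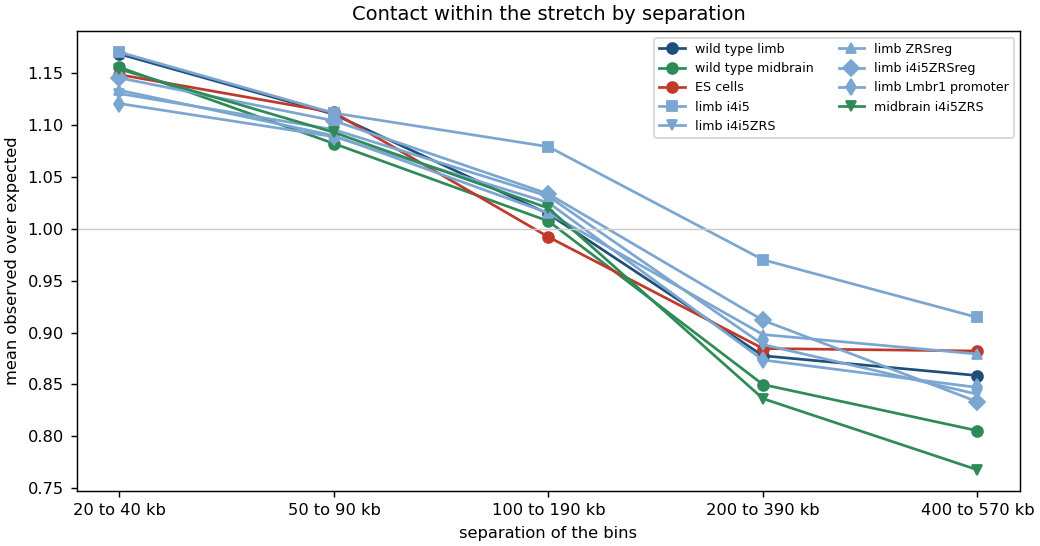
Mean observed over expected (vertical axis) by separation of the bins in kb (horizontal axis), 1 line per merged map: dark blue wild type limb, light blue mutant limb, green midbrain, red ES cells. All lines fall from between 1.12 and 1.17 to between 0.768 and 0.915, with both midbrain maps lowest at 200 kb and beyond.

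The pattern inside the stretch was shared by all 9 maps in its main lines. In windows of 5 by 5 bins, of which 1176 fit in the stretch, the highest contact joined bins around 20 and 110 kb (chr5:27800001-27850000 with chr5:27890001-27940000). Observed over expected in this window was 1.62 in the wild type limb map, 1.56 in wild type midbrain, 1.75 in ES cells, and 1.64, 1.62, 1.58, 1.52 and 1.63 in limb i4i5, i4i5ZRS, ZRSreg, i4i5ZRSreg and the Lmbr1 promoter map, with 1.58 in midbrain i4i5ZRS. All 9 maps were thus far above 1, ES cells most. The next windows joined 20 with 160 kb (1.40 to 1.69) and, away from the edge, 350 with 550 kb (1.42 to 1.51). The last of these, chr5:28130001-28180000 with chr5:28330001-28380000, spans 200 kb and differed little from map to map. The windows around 20 kb lie at the very end of the captured region and include the thinly covered bin at 30 kb. With the expected value from the stretch alone, the highest window joined 340 with 550 kb, and 20 with 130 kb came next.

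The weakest contacts all involved bins around 300 kb. Windows joining them with 40, 90 and 140 kb were the 3 lowest. The weakest, chr5:27820001-27870000 with chr5:28080001-28130000, had 0.508 in wild type limb (0.459 to 0.556), 0.555 in wild type midbrain (0.492 to 0.618) and 0.352 in ES cells (0.316 to 0.387). The mutant limb maps lay between 0.475 and 0.582 and midbrain i4i5ZRS at 0.530. The interval of ES cells lay below all others. Averaged over all its partners in the stretch, the bin at 300 kb (chr5:28100001-28110000) was the lowest bin in each of the 9 maps, with 0.660 in ES cells and 0.722 to 0.805 in the others.

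Insulation shows where the stretch is divided. Here it is the mean signal in a square of 5 by 5 bins that spans a bin, divided by the average of such squares over the map and taken as log2, and a low value means little contact across that bin. The mean over the 9 maps had 3 local minima in the stretch. The deepest was at 320 kb (chr5:28120001-28130000) with -0.22, and shallow ones stood at 180 kb (chr5:27980001-27990000, -0.035) and 500 kb (chr5:28300001-28310000, -0.020). At 320 kb wild type limb had -0.24, wild type midbrain -0.29 and the other tissue maps -0.26 to -0.21. Each of the 8 tissue maps had its own minimum there or 1 bin on, at 330 kb. Limb i4i5ZRSreg lacked the minimum at 180 kb and had 1 at 250 kb (-0.11), where limb i4i5 had 1 as well (0.0097). Just above the stretch insulation fell again, to -0.34 at 600 kb in the mean over maps (-0.50 in ES cells, -0.40 to -0.22 in the others), which is deeper than any minimum within it. With counts that were not balanced, the minima of the mean over maps were at 190 and 470 kb, the second in the thinly covered bins, and with squares of 10 by 10 bins at 200 and 330 kb.

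**Figure D2:**
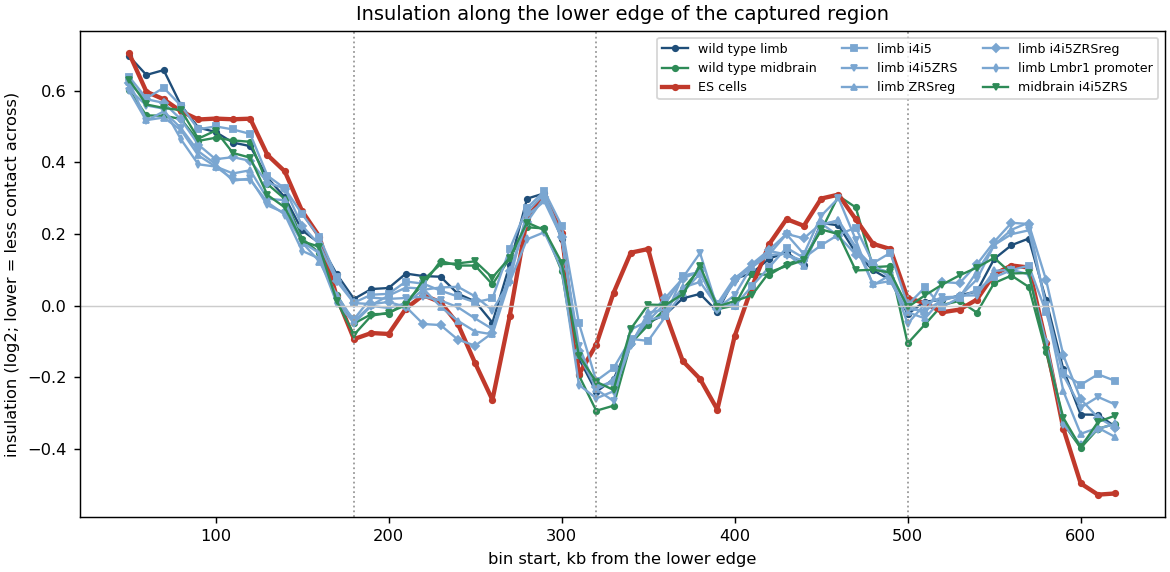
Insulation (log2, vertical axis) by bin start in kb from the lower edge (horizontal axis), 1 line per merged map, with dotted lines at the 3 minima of the mean over maps. The ES cell line (red) is below the 8 tissue lines at 260 and 390 kb, where most of those have a shallower low, and above them at 340 kb.

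The 3 minima divide the stretch into 4 blocks. The first block, 0 to 170 kb, had strong contact with itself, with 1.48 in the wild type limb map, 1.43 in wild type midbrain, 1.53 in ES cells and 1.40 to 1.48 in the mutant maps. It had little with the second block, 190 to 310 kb, at 0.805, 0.798 and 0.690 in the same 3 wild type maps. The third block, 330 to 490 kb, was in contact with the fourth, 510 to 570 kb, at 1.18 to 1.28 in the 9 maps. This contact was higher than that within either block, 1.05 to 1.13 and 0.923 to 1.06, so the blocks on either side of the shallow minimum at 500 kb were not in less contact than the bins within each.

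ES cells were close to limb in mean observed over expected but differed in the arrangement of contact. The log2 ratio of the means of the stretch was -0.0042 (counting interval -0.019 to 0.010), and 0.10 without balancing. In counts the amount did differ, as the stretch held 11.3% of the contacts of the region at 20 kb or more in ES cells and 9.54% in wild type limb. Among windows, however, 88 of 1176 were past 1.5-fold, all of them lower in ES cells. That is 7.48%, beside 9.03% over the 11832 windows of the whole region at the same separations, which include those of the stretch, so the share is near that of the region. All 88 had their centres at 30 to 170 kb and at 270 to 370 kb, and all 88 were lower in ES cells than in each of the 8 other maps. Against wild type midbrain 102 windows were past 1.5-fold, again all lower, or 8.67% beside 7.06% over the region. The lists share 68 windows, 77.3% of the first and 66.7% of the second. Both lists were picked by low values in the same ES cell map. The overlap and the rank below the 8 other maps are thus not independent support. The SD of the window log2 ratios of ES cells over limb was 0.30, and counting alone gives 0.069. Over all windows of the region the SD was 0.33, with 284 windows higher and 785 lower past 1.5-fold, so neither the scatter nor the excess of lower windows is particular to the stretch. In the Shh domain 0 of 2856 windows were past 1.5-fold and the SD was 0.16.

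**Figure D3:**
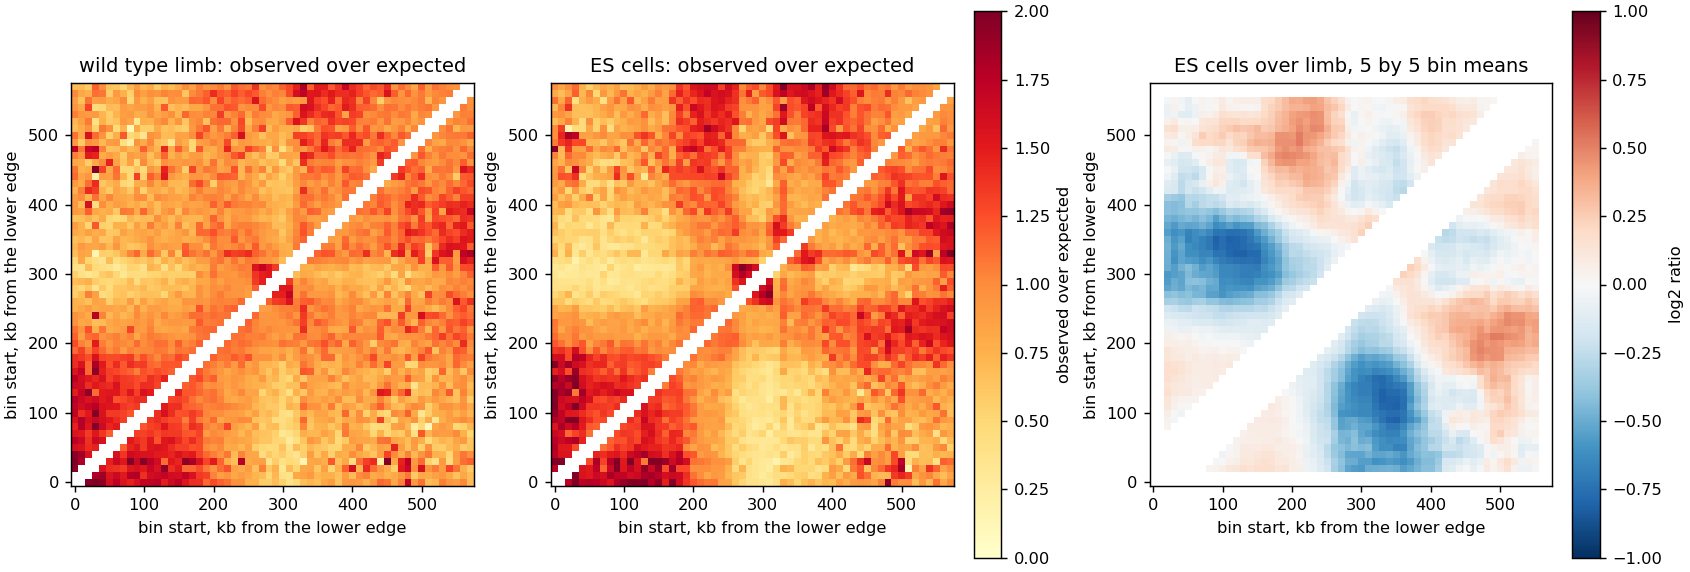
Observed over expected of single bin pairs in wild type limb and in ES cells, and the log2 ratio of 5 by 5 bin means (ES cells over wild type limb), with both axes in kb from the lower edge and white where bins are too near each other or too near an edge for a window. The ratio shows 1 low field (blue) that joins the first 170 kb with bins from 270 to 380 kb and a weaker high field (red) from about 200 with about 500 kb.

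The window with the largest loss joined 90 with 350 kb (chr5:27870001-27920000 with chr5:28130001-28180000), where ES cells had 0.474 and wild type limb 0.830, a log2 ratio of -0.81 (-0.96 to -0.65) from 668 and 1009 contacts. Midbrain wild type and i4i5ZRS had 0.695 and 0.686 there, and the mutant limb maps 0.811 to 0.868. So ES cells were lowest, both midbrain maps came next and the 6 limb maps were highest, with no overlap. Near it, the window joining 140 with 330 kb had 0.454 in ES cells against 0.779 in wild type limb (log2 -0.78), 0.794 in wild type midbrain and 0.711 to 0.840 in the mutants. Gains in ES cells stayed under 1.5-fold. The highest was between 210 and 490 kb (chr5:27990001-28040000 with chr5:28270001-28320000), with 1.40 in ES cells, 0.982 in the wild type limb map, 0.985 in wild type midbrain and 0.960 to 1.04 in the mutants, a log2 ratio over wild type limb of 0.52 (0.39 to 0.64). All 8 tissue maps lay near 1 in that window.

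A pair of rectangles drawn after these values were seen sums up the pattern as a description. Bins from 0 to 170 kb with bins from 270 to 380 kb (216 pairs) had a mean of 0.457 in ES cells (0.445 to 0.470), 0.687 in wild type limb (0.670 to 0.704), 0.686 in wild type midbrain (0.666 to 0.706) and 0.660 to 0.797 in the mutants. ES cells were lower than wild type limb in 204 of the 216 pairs, with a log2 ratio of -0.59 (-0.64 to -0.53) that was -0.47 without balancing. Over the Lmbr1 promoter map, which has the G4 strain label as ES cells do, the ratio was -0.65. Bins from 190 to 250 kb with bins from 400 to 570 kb (126 pairs) went the other way, at 1.33 in ES cells (1.31 to 1.36), 1.02 in the wild type limb map, 0.968 in wild type midbrain and 0.998 to 1.11 in the mutants. That is a log2 ratio over wild type limb of 0.38 (0.34 to 0.43), or 0.43 without balancing, and 0.41 over the Lmbr1 promoter map.

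**Figure D4:**
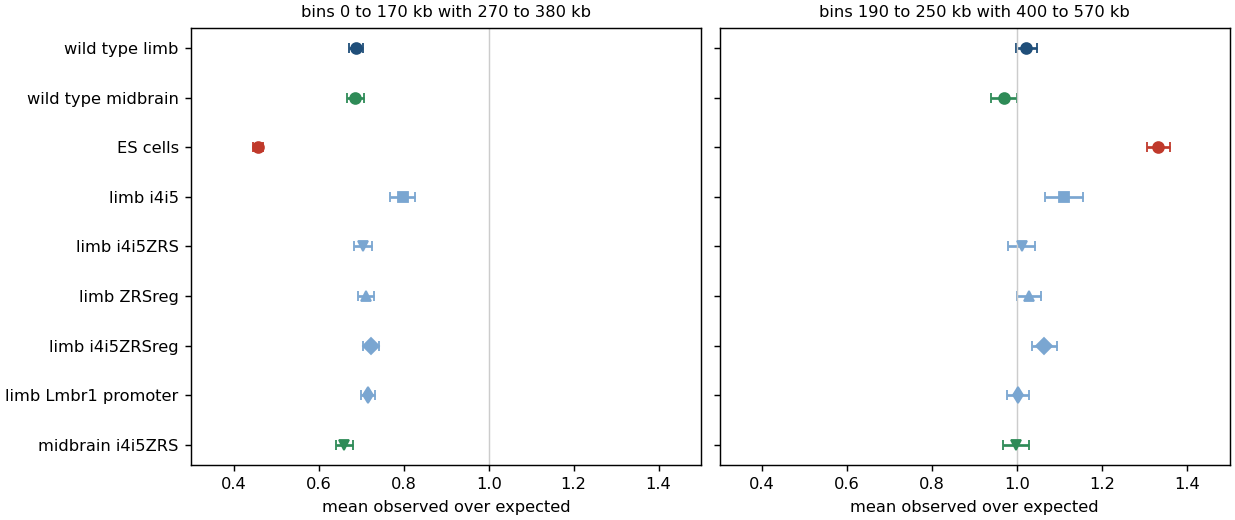
Mean observed over expected (horizontal axis, not starting at 0) in the rectangles of low and of high ES cell contact, 1 point per merged map with its 95% counting interval, which holds no replicate error. ES cells stand apart at 0.457 and 1.33, and the other maps lie at 0.660 to 0.797 and at 0.968 to 1.11.

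The main minimum of the tissues was shallower in ES cells, and lows on either side of it were deeper. The minima of ES cells were at 180, 260, 390 and 520 kb, of which that at 180 kb was shared with 7 of the 8 other maps and that at 520 kb with limb i4i5. The places of minima depended on the setting. Without balancing ES cells and wild type limb had the same minima, at 190 and 470 kb, and with squares of 10 by 10 bins both had 1 at 200 kb and a second at 370 kb in ES cells and 330 kb in wild type limb. The bins compared next were chosen after their values were seen. At 260 kb (chr5:28060001-28070000) insulation was -0.26 in ES cells and -0.080 to 0.079 in the 8 other maps, and at 390 kb (chr5:28190001-28200000) -0.29 against -0.016 to 0.0059. At 320 kb, the minimum of the tissues, ES cells had -0.11 against -0.29 to -0.21, and at 340 kb 0.15 against -0.11 to -0.064. ES cells thus lay outside the range of the tissues at all 4 bins, and did so when counts were thinned to the shallowest map. They did so too without balancing, but at 260 kb only just, with 0.036 against 0.045 to 0.30. With squares of 10 by 10 bins ES cells fell within the range of the others at 320 kb. Across the tissue border, bins from 270 to 310 kb with bins from 330 to 380 kb (30 pairs, likewise chosen after the values were seen) had 0.902 in ES cells (0.879 to 0.925), 0.822 in wild type limb (0.798 to 0.846), 0.795 in wild type midbrain (0.768 to 0.822) and 0.810 to 0.863 in the mutants.

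ES cells also kept more of the contacts of the stretch inside it. Of all contacts that bins of the stretch made at 20 kb or more, 48.8% (Wilson interval 48.7% to 49.0%) joined another bin of the stretch in ES cells and 39.6% to 42.4% in the other maps. These shares are not corrected for how contact falls with distance. Over windows, the ES cell map lay below all 8 other maps in 438 of 1176 (37.2%, beside 35.3% over the region) and above all of them in 324 (27.6%, beside 26.8%). Both shares are near those of the region.

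Midbrain windows differed from limb by less than those of ES cells, with an SD of the log2 ratios of 0.091 against 0.30. Counting alone gives 0.080 for wild type midbrain over limb, so this scatter was little above counting error. In the mean of the stretch, midbrain did not differ from limb by less than ES cells did. The difference of midbrain was mainly at long range. The log2 ratio of the means was -0.035 for the wild types (-0.052 to -0.018) and -0.041 for i4i5ZRS in midbrain over i4i5ZRS in limb (-0.059 to -0.023), the second within strain G4. Scaled by the total signal of each map in place of the expected value, the second turned to 0.035. At 200 to 390 kb the midbrain maps had 0.850 and 0.836 and the limb maps 0.874 to 0.970, and at 400 to 570 kb 0.805 and 0.768 against 0.833 to 0.915, with no overlap at either distance. At 20 to 40 kb both midbrain maps, at 1.16 and 1.15, lay within the limb range of 1.12 to 1.17.

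No window was past 1.5-fold for midbrain over limb, with 0 of 1176 in the wild types beside 0.558% over the region, and 0 in i4i5ZRS beside 2.43%. Both midbrain maps lay below all 6 limb maps in 297 windows (25.3%), beside 17% over the region, and above all of them in 24 (2.04%), beside 12.5%. The share below was 17.6% at separations of 60 to 190 kb, 32.2% at 200 to 390 kb and 35.2% at 400 to 530 kb, beside 12.1%, 18.6% and 20.4% over the region. The 6 limb maps differ in genotype and are not replicates, and the windows overlap one another, so these shares describe the maps only.

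From 230 to 260 kb both midbrain maps had more contact across each bin than all limb maps. At 180 to 200, 420, 430 and 560 kb both had less than all limb maps. Insulation at 430 kb was 0.115 in wild type and 0.111 in i4i5ZRS midbrain, against 0.143 to 0.201 in limb. At 250 kb (chr5:28050001-28060000), a bin chosen after its values were seen, insulation was 0.11 in wild type and 0.12 in i4i5ZRS midbrain, between -0.11 and 0.026 in the 6 limb maps and -0.16 in ES cells. At 260 kb it was 0.060 and 0.079 in midbrain and -0.080 to 0.020 in limb. Without balancing ES cells had 0.15 at 250 kb, within the limb range of 0.047 to 0.23. Midbrain and limb did not overlap at 250 kb with thinned counts or with counts that were not balanced either. With squares of 10 by 10 bins midbrain was above limb by less than the spread of the limb maps, at -0.0018 and 0.013 against -0.097 to -0.0021. At 260 kb midbrain and limb overlapped with 10 by 10 bins and without balancing. The second block, 190 to 310 kb, had contact with itself of 1.09 and 1.11 in midbrain against 1.01 to 1.07 in limb and 1.01 in ES cells. In the window joining 210 with 290 kb, midbrain had 1.01 in wild type and 1.04 in i4i5ZRS, limb 0.875 to 0.994 and ES cells 0.780.

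Maps of the deletions other than i4i5 differed little from wild type in mean observed over expected of the whole stretch. Over wild type limb, the log2 ratio of the mean was 0.00034 for i4i5ZRS (-0.017 to 0.017), 0.0042 for ZRSreg (-0.012 to 0.020), 0.017 for i4i5ZRSreg (0.0010 to 0.032) and -0.012 for the Lmbr1 promoter (-0.027 to 0.0032). For midbrain i4i5ZRS over wild type midbrain it was -0.0060 (-0.024 to 0.012). Except for i4i5ZRSreg, these counting intervals include 0. These values depended on the scaling. By the total signal of each map they were -0.16 for i4i5ZRS, -0.080 for ZRSreg, -0.049 for i4i5ZRSreg, -0.13 for the Lmbr1 promoter and -0.035 for midbrain i4i5ZRS, so all 5 were negative and the first 3 of them turned direction. Without balancing the same 3 were -0.037, -0.017 and -0.014.

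Limb i4i5 was the exception, with a log2 ratio of 0.082 (0.062 to 0.10). Its excess was at separations of 100 kb or more. It had 1.17 at 20 to 40 kb and 1.11 at 50 to 90 kb as wild type limb did, 1.08 against 1.01 at 100 to 190 kb, 0.970 against 0.878 at 200 to 390 kb and 0.915 against 0.859 at 400 to 570 kb, and it was the highest of the 9 maps in the last 3 classes. The ratio was 0.031 without balancing and 0.0020 when scaled by the total signal. At the upper edge and in the Shh domain stretch its ratio was negative, -0.068 and -0.049. The upper edge ratios of all other mutant limb maps were negative too, between -0.079 and -0.032. In the Shh domain stretch i4i5ZRSreg had -0.017, and i4i5ZRS, ZRSreg and the Lmbr1 promoter had 0.022, 0.033 and 0.034. Limb i4i5 is also the shallowest map, with 1177173 contacts in the region against 1983686 to 3218492 in the others, and the part of depth in this result was not tested. The 2 limb maps that carry the i4i5 deletion with another had ratios of 0.00034 and 0.017.

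No window of the stretch was past 1.5-fold in any of the 6 deletion comparisons. Over the region the share past 1.5-fold was 0.634% for i4i5, 0.507% for i4i5ZRS, 0.609% for i4i5ZRSreg and 0.423% for i4i5ZRS in midbrain, and it was 0% for ZRSreg and for the Lmbr1 promoter. With windows of 3 by 3 bins 24 were past it for i4i5, and without balancing 56 of 1176 for midbrain i4i5ZRS. The SD of the window log2 ratios was 0.12 for i4i5, 0.096 for i4i5ZRS, 0.079 for ZRSreg, 0.086 for i4i5ZRSreg, 0.080 for the Lmbr1 promoter and 0.11 for midbrain i4i5ZRS. Counting alone gives 0.093, 0.079, 0.073, 0.073, 0.071 and 0.087 in the same order, so the scatter was above counting error in each comparison, by most for i4i5 and midbrain i4i5ZRS. For ZRSreg 91.5% of windows were within 10% of wild type limb, for i4i5 59.2%, and for ES cells 40.3%.

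**Figure D5:**
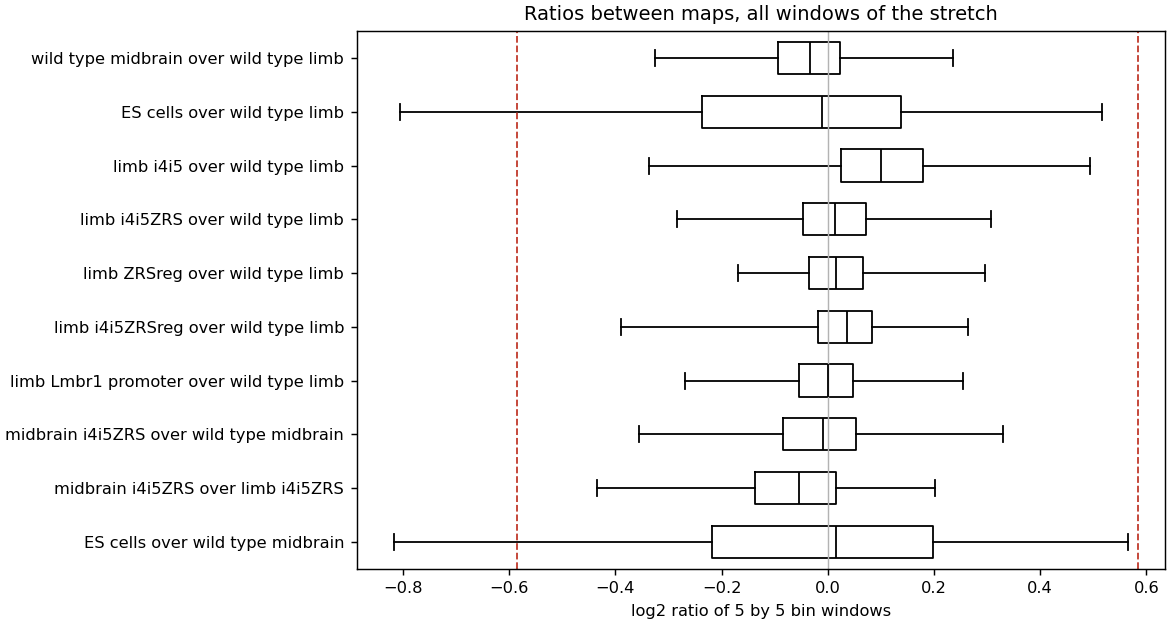
Log2 ratios of the 5 by 5 bin windows of the stretch (horizontal axis) in the 10 comparisons (vertical axis). Boxes hold the middle quartiles with the median as a line, whiskers reach the lowest and the highest window, and dashed lines mark 1.5-fold. The boxes of ES cells are the widest and are the only ones whose whiskers cross the lower dashed line, and the box of limb i4i5 is shifted to higher values.

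The most changed windows of the deletions lay mostly in thinly covered bins. Of the 2 highest and 2 lowest windows in each of the 6 comparisons, 24 in all, 19 included a bin from 430 to 510 kb, as did 45.7% of all windows. The counting interval included 0 in 7 of them. The largest was i4i5 over wild type limb between 90 and 470 kb, with 1.04 against 0.741, a log2 ratio of 0.49 (0.21 to 0.78) from 170 and 353 contacts. Its window is at 0.880, 0.897, 0.883 and 0.757 in limb i4i5ZRS, ZRSreg, i4i5ZRSreg and the Lmbr1 promoter map, so all 5 mutant limb maps were above wild type limb there. The lowest was i4i5ZRSreg between 50 and 460 kb, with 0.727 against 0.953, a log2 ratio of -0.39 (-0.68 to -0.10) from 238 and 313 contacts. Better covered was the window of midbrain i4i5ZRS between 320 and 470 kb, at 1.13 against 0.920 in wild type midbrain, a log2 ratio of 0.30 (0.14 to 0.47) from 924 and 515 contacts.

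Maps ranked the pairs of the stretch alike, more closely in windows than in single pairs. Across the 1596 pairs, which share bins and depth and are not replicates, Spearman's rho between limb maps was 0.529 to 0.716 and between ES cells and limb 0.556 to 0.707. In 5 by 5 windows it was 0.869 to 0.955 between limb maps, 0.847 to 0.959 between limb and midbrain, 0.830 to 0.876 between ES cells and limb and 0.795 to 0.842 between ES cells and midbrain. Without the shallow i4i5 map the limb range in windows was 0.926 to 0.955, and all values of ES cells were below it. With counts thinned to the shallowest map, single pairs gave 0.450 to 0.531 between limb maps and 0.508 to 0.568 between ES cells and limb, so in single pairs ES cells did not stand apart.

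Beyond its own bins, the stretch had near-usual contact with the rest of the region. With the bins between it and the lower border of the Shh domain (chr5:28380001-28760000) the mean was 0.968 to 1.02 in the 9 maps, and with the flank above the Shh domain 0.999 to 1.07. At the farthest separations every pair of the region joins the stretch with this flank. The mean there is 1 by construction, so the flank value is partly fixed in advance. With the Shh domain (chr5:28770001-29700000, 5394 pairs) the mean was 0.959 in wild type limb (0.951 to 0.967), 0.953 in wild type midbrain and 1.06 in ES cells (1.05 to 1.07). The mutant limb maps had 0.904 for i4i5, 0.944 for i4i5ZRS, 1.02 for ZRSreg, 0.907 for i4i5ZRSreg and 0.979 for the Lmbr1 promoter, and midbrain i4i5ZRS had 0.878 (0.870 to 0.887). By this measure ES cells were highest, and the 4 maps with the i4i5 deletion were lowest. The counting intervals of limb i4i5ZRS (0.934 to 0.954) and wild type midbrain (0.943 to 0.962) overlapped, however. The log2 ratio was -0.086 for i4i5 (-0.11 to -0.064), -0.023 for i4i5ZRS (-0.042 to -0.0034) and -0.080 for i4i5ZRSreg (-0.098 to -0.063) over wild type limb, and -0.12 for midbrain i4i5ZRS over wild type midbrain (-0.14 to -0.097). For ZRSreg it was 0.093 (0.076 to 0.11). With the median as the expected value these contacts were 0.998 to 1.25, again with ES cells highest and the 4 maps with the i4i5 deletion lowest. As a share of all contacts of the stretch at 20 kb or more, not corrected for distance, the order differed. The Shh domain held 17.5% in ES cells, the lowest share, 21.5% in wild type limb and 21.2% in wild type midbrain. Limb i4i5, i4i5ZRS, i4i5ZRSreg and ZRSreg had 23.0%, 21.2%, 21.8% and 23.4%, and midbrain i4i5ZRS 19.5%.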

How the data were processed

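The authors merged the libraries of a group and deposited their KR-balanced signal for each pair of bins (10 kb), as the file names state. Per the submitters' processing notes, the build was mm9 and the tools were Bowtie2 2.3.4.1, cutadapt 1.15, SAMtools and Juicer, with settings not given in the sources used here. Unlisted pairs were taken as 0.

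Each balanced value is a whole count over a factor of each bin, and counts were recovered on this basis (in all 9 maps 100% came out whole, with a tolerance of 0.01). Intervals for counting error (95%) take expected values as fixed, and reads without molecular identifiers are not independent molecules. Observed over expected, 5 by 5 bin windows with all pairs 20 kb or more apart, 1.5-fold calls, insulation and blocks were computed in Python 3.11.15 (numpy 2.4.6, scipy 1.17.1, pandas 2.3.3). The calculation was tested on simulated data. Named windows are the 3 highest and 3 lowest by the mean log2 over maps and the 2 highest and 2 lowest of each comparison, at least 50 kb apart, and a selection of the latter is printed. The windows, their threshold and the members were chosen with earlier results of these data known. The effect of the alternatives is given in the closing section. Sequences of the windows were not used here.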

Additional observations from a re-analysis of the deposited data

How the results depend on the processing

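The cause of the changes below was not tested. Log2 ratios of the stretch mean moved most without balancing and with scaling by total signal. Without balancing they were -0.017 for wild type midbrain over limb, 0.10 for ES cells over limb (a change of sign), 0.12 for ES cells over midbrain, 0.031 for i4i5, -0.037 for i4i5ZRS, -0.017 for ZRSreg, -0.014 for i4i5ZRSreg (a change of sign in all 3), -0.032 for midbrain i4i5ZRS over wild type and -0.012 for it over limb. Scaled by total signal they were -0.094, -0.024, 0.070, 0.0020, -0.16, -0.080, -0.049 (a change of sign in these last 3), -0.035 and 0.035 (a change of sign) in the same order, and -0.13 for the Lmbr1 promoter. With the median for the expected value, wild type midbrain over limb was -0.052, i4i5ZRS midbrain over limb -0.060 and ES cells over midbrain 0.058. Without the first 10 bins, ES cells over limb were 0.026 and midbrain i4i5ZRS over wild type 0.013 (both a change of sign), and ES cells over midbrain 0.058.

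Windows past 1.5-fold, none of them in the main setting outside the ES cell comparisons, numbered with 3 by 3 bins 4 for wild type midbrain over limb, 24 for i4i5, 2 for i4i5ZRS, 4 for i4i5ZRSreg, 1 for the Lmbr1 promoter, 3 for midbrain i4i5ZRS over wild type and 7 over limb. Without balancing they numbered 2 for i4i5, 1 for i4i5ZRS, 56 for midbrain i4i5ZRS over wild type and 185 for ES cells over midbrain. Thinned to the shallowest map, there was 1 for midbrain i4i5ZRS over wild type and there were 167 for ES cells over midbrain. For ES cells over limb the count was 87 to 130 over all alternatives. The mean of the stretch was 0.980 to 1.08 over the 9 maps with the median for the expected value, 0.709 to 0.788 without balancing, 0.930 to 1.02 at separations of 50 kb or more and 0.962 to 1.04 without the first 10 bins. Mean insulation at 180, 320 and 500 kb was -0.13, -0.13 and 0.098 with squares of 10 by 10 bins and 0.043, -0.49 and -1.25 without balancing. With the expected value from the stretch alone, the mean log2 over maps of the window joining 20 with 110 kb moved from 0.687 to 0.575. That of the window joining 350 with 550 kb moved from 0.549 to 0.634. Alternatives added after the data were seen concern ES cells and the insulation of midbrain at 250 and 260 kb, given above. The insulation of ES cells minus the mean of the 8 other maps ranged from -0.30 to -0.12 at 260 kb, from 0.11 to 0.34 at 340 kb and from -0.29 to -0.18 at 390 kb. The log2 ratio of ES cells over limb ranged from -0.65 to -0.47, from 0.38 to 0.43 and from 0.13 to 0.24 in the 3 rectangles. The other 62 values of the log2 ratios and window counts stayed within counting error or within 1.5 times the count.

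No paired analysis was possible because the samples of each group were merged before deposit, which also leaves no replicate to leave out. The median could not be used for the upper flank in maps where it is 0 at the farthest separations. Depth limits the far windows most, above all those with bins from 430 to 510 kb.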
